A study of Mus musculus with 10 samples.

Results

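The genes described here encode the laminins, the integrins and 5 glycoproteins of basement membranes and related matrix. Members were chosen by gene symbol, as all laminin α, β and γ chains, all integrin α and β chains, the nidogens Nid1 and Nid2, perlecan (Hspg2), agrin (Agrn) and fibronectin (Fn1). The rule found 42 genes among the 24016 rows of the expression table, of which 11 were laminin chains, 26 integrin chains (18 α and 8 β) and 5 the other glycoproteins. Liver RNA was sequenced from 10 male mice of the C57/Bl6 strain, 8–12 weeks of age, 5 in each of 2 groups. AdVEGFA mice had received an adenovirus that expresses VEGF-A165 from the CMV promoter, and AdCMV mice the corresponding vector with that promoter and no transgene, so that both groups carried an adenovirus. Vectors were injected into the tail vein and the liver was taken on day 6, and the CMV promoter does not restrict the transgene to a cell type. Total RNA was depleted of ribosomal RNA, and the authors deposited RPKM, read counts divided by transcript length and by the mapped tags of the library, for each mouse. The mapped tags of each library were estimated from the steps in its RPKM values. The estimates were 7241358, 13494009, 7879667, 9429223 and 5758959 in AdCMV mice 1 to 5, and 5617295, 7427382, 5596565, 8133953 and 6730408 in AdVEGFA mice 1 to 5. For a 1 kb transcript, a count of 3 reads equals between 0.222 and 0.521 RPKM in AdCMV libraries and between 0.369 and 0.536 RPKM in AdVEGFA libraries. Vegfa itself ranged from 13.8 to 23.2 RPKM in the AdCMV mice and from 28.3 to 39.4 RPKM in the AdVEGFA mice (log2 fold change 0.82 ± 0.19 SE, adjusted p = 0.00487), so that the groups did not overlap in the direction of their labels. Whether reads from the transgene are counted in the Vegfa row is not given in the sources used here. Alb, a defining hepatocyte gene, had mean levels of 7716 RPKM in the AdCMV group and 16666 RPKM in the AdVEGFA group.

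Laminins are trimers of an α, a β and a γ chain that assemble into a sheet on the cell surface, and nidogens and perlecan connect this sheet to the collagen IV network of the basement membrane. Integrins are αβ pairs through which cells bind laminin, collagen, fibronectin or the surface of other cells, and the β1 chain pairs with more α chains than any other. Hepatic sinusoids differ from most vessels in that their endothelium has pores and lacks a continuous basement membrane, whereas larger vessels and bile ducts of the liver have one.

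Of the 42 members, 33 were tested, and of these 17 rose in the AdVEGFA group and 0 fell, by limma across all genes. A call required an adjusted p below 0.05 together with a fold threshold of 1 on the log2 scale in either direction. Among all 13933 genes tested, 13.0% were called higher and 1.54% lower. The members with calls were 7 of the 11 laminin chains, 3 of the 5 other glycoproteins, 5 of the 18 integrin α chains and 2 of the 8 integrin β chains. No member fell at an unadjusted p under 0.05 either, and voom on the reads behind the RPKM values also called 17 higher and 0 lower. A further 9 members lay below the filter on low values (0.5 RPKM, to be exceeded by the mean of either group) and were not tested, and 4 laminin chains passed it only by their AdVEGFA mean. Without the filter all 42 members could be fitted, and their median log2 fold change was 0.72, beside 0.32 over the 18554 genes in that fit. Each AdVEGFA mouse lay above each AdCMV mouse for the 17 called members and for Itga2, which was below the filter, a pattern shown by 14.3% of all genes tested.

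RPKM is a share of the library, and over all genes tested the log2 fold changes had a median of 0.38. Major urinary protein (Mup) genes, an abundant product of hepatocytes, took 42.2, 39.6, 18.01, 50.5 and 32.4% of the reads in AdCMV mice 1 to 5 and 17.01, 17.1, 7.84, 11.2 and 28.6% in AdVEGFA mice 1 to 5. Changes are therefore also given relative to that median, and after median-ratio scaling, which brought it to 0.00. Scaled in this way, 7.77% of genes were called higher and 3.14% lower, that is 1082 and 438 genes in place of 1808 and 214, and 15 members were higher and 0 lower. Itgb1 and Itga1 were the members that lost the call, and voom with the same scaling called 15 members higher and 2, Itgax and Lamb3, lower. The summed RPKM of the members other than Fn1 was 104, 99.8, 183, 75.4 and 159.5 in the AdCMV mice and 288, 284, 299.5, 282 and 276 in the AdVEGFA mice. AdCMV mice 3 and 5 had the highest sums of their group and also its lowest Mup shares, and the part of the Mup share in the members' values was not tested beyond the scaling. In whole tissue, more cells of a type and more RNA per cell cannot be told apart.

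**Figure D1:**
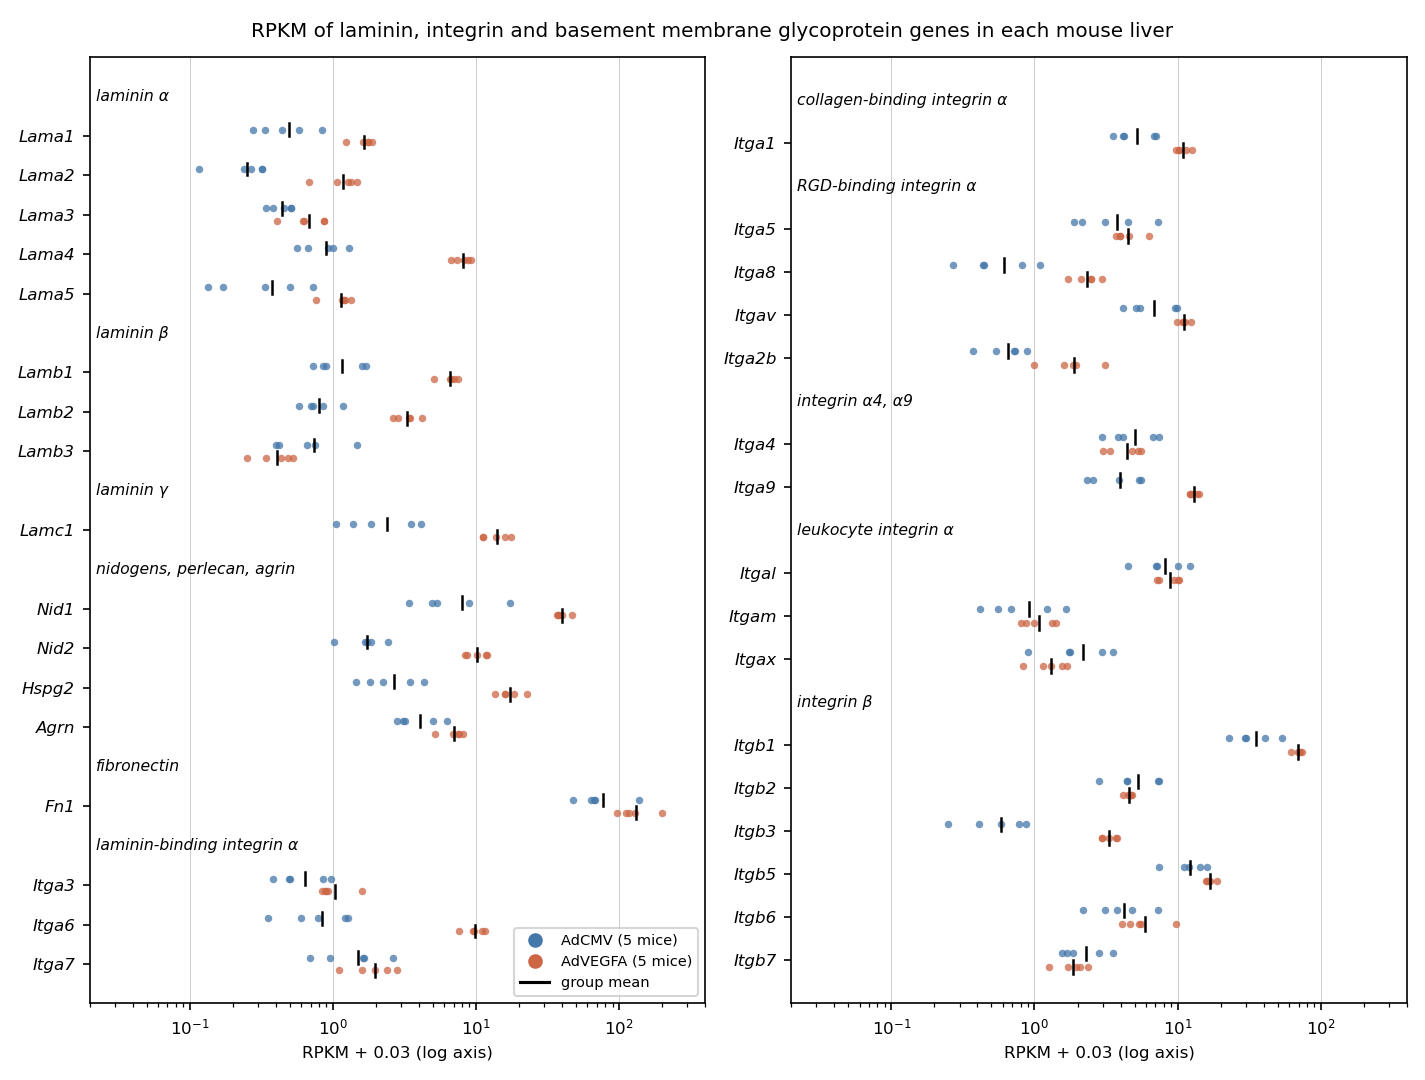
RPKM of each of the 33 members tested in each mouse, plotted as RPKM + 0.03 on a log axis, with AdCMV mice in blue, AdVEGFA mice in orange and group means as black bars. The AdVEGFA points lie to the right of all AdCMV points for 17 members, among them Lama4, Itga6 and Itgb3, and not for the other 16.

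Among the laminin α chains, Lama1, Lama2, Lama4 and Lama5 rose and Lama3 did not pass the test. Lama4, the α chain typical of vessel walls, lies at chr10:38685321-38829994 in mm9, the build named in the submitters' processing notes. Its levels were 0.644, 0.888, 0.972, 0.530 and 1.27 RPKM in AdCMV mice 1 to 5 and 7.35, 8.21, 8.72, 9.21 and 6.66 RPKM in AdVEGFA mice 1 to 5. The groups were far apart, the lowest AdVEGFA mouse being mouse 5 and the highest AdCMV mouse also mouse 5. The log2 fold change was 3.12 ± 0.24 (SE, n = 5 mice a group; adjusted p = 1.57e-07), or 2.74 above the median of all genes.

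Lama5, an α chain of many epithelial and adult vessel basement membranes, was measured at 0.305, 0.105, 0.696, 0.141 and 0.476 RPKM in the AdCMV mice and 1.13, 0.738, 1.17, 1.19 and 1.31 RPKM in the AdVEGFA mice. The AdVEGFA values were all higher, but AdVEGFA mouse 2 exceeded AdCMV mouse 3 by little, and the AdCMV values rest on 15 to 62 reads. Lama5 rose by a log2 fold change of 1.60 ± 0.40 (SE; adjusted p = 0.00793). Lama1, best known from embryonic basement membranes, ranged from 0.247 to 0.808 RPKM and from 1.197 to 1.85 RPKM in the AdCMV and AdVEGFA groups (1.68 ± 0.32). Lama2, the α chain of muscle and of mesenchymal cells, ranged from 0.0860 to 0.289 and from 0.650 to 1.44 RPKM (1.95 ± 0.36). Lama3, an α chain of epithelial laminins, overlapped between the groups at 0.310 to 0.484 and 0.380 to 0.840 RPKM (0.52 ± 0.34, adjusted p = 0.260). Scaling brought Lama3 to 0.19. Lama1, Lama2, Lama3 and Lama5 are the 4 chains with a mean over 0.5 RPKM in the AdVEGFA group alone. With a pseudocount of 1 in place of 0.1, the log2 fold changes of Lama1, Lama2 and Lama5 were 0.85, 0.80 and 0.66 and their calls were lost, as they were with treat, whose null hypothesis is a change within the fold threshold (adjusted p = 0.399, 0.177 and 0.926).

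Lamb1 and Lamb2, the β chains of most laminins, both rose. Lamb1 (chr12:31950159-32014504) stood at 0.866, 0.826, 1.57, 0.702 and 1.66 RPKM in the AdCMV mice and at 6.67, 6.59, 7.03, 7.47 and 5.04 RPKM in the AdVEGFA mice. Lamb2 stood at 0.692, 0.676, 0.817, 0.550 and 1.15 RPKM and at 3.44, 2.60, 4.16, 2.82 and 3.38 RPKM in the same order. Neither gene overlapped between the groups, and AdCMV mice 3 and 5 were the highest controls for both. The log2 fold changes were 2.51 ± 0.26 for Lamb1 (adjusted p = 2.33e-06) and 1.96 ± 0.26 for Lamb2 (adjusted p = 2.27e-05), and with a pseudocount of 1 Lamb2 was at 1.27 and kept its call. Lamb3, a β chain of epithelial laminins, gave 0.368 to 1.45 RPKM in the AdCMV mice and 0.221 to 0.501 RPKM in the AdVEGFA mice. Its log2 fold change of -0.65 ± 0.40 did not pass the test (adjusted p = 0.236). After median-ratio scaling it was -0.97 with an adjusted p of 0.0492, short of the fold threshold, and by voom with this scaling it was called lower at -1.17 (adjusted p = 0.0275). Its AdCMV mean alone carried it over the filter.

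Lamc1, the γ chain shared by nearly all laminins of vessels, lies at chr1:155066052-155179916 and had the highest mean RPKM of the laminin chains in the AdVEGFA group. Its levels were 1.82, 1.35, 4.08, 1.02 and 3.48 RPKM in the AdCMV mice and 13.7, 11.1, 16.03, 11.2 and 17.4 RPKM in the AdVEGFA mice. All AdVEGFA mice exceeded all AdCMV mice, of which mice 3 and 5 were again the highest. The log2 fold change was 2.67 ± 0.32 (SE; adjusted p = 9.30e-06), or 2.29 above the median of all genes. Lamc3 rested on 3 to 14 reads per AdCMV mouse and 5 to 17 per AdVEGFA mouse and was below the filter, and without the filter it was not called (0.26 ± 0.34, adjusted p = 0.619).

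Both nidogens and perlecan rose, whereas agrin and fibronectin stayed under the fold threshold. Nid1 (chr13:13529869-13604542), the nidogen that binds the laminin γ1 chain, was present at 4.93, 5.29, 17.2, 3.40 and 8.88 RPKM in the AdCMV mice and at 37.9, 39.8, 37.3, 46.6 and 36.8 RPKM in the AdVEGFA mice. Nid2, its relative in vessel and other basement membranes, was present at 1.82, 1.69, 1.65, 0.982 and 2.39 RPKM and at 11.6, 8.67, 10.1, 8.40 and 11.8 RPKM. For both genes the groups were apart, and AdCMV mouse 3 had the highest Nid1 level of its group and the second lowest Nid2 level. Log2 fold changes were 2.54 ± 0.32 for Nid1 (adjusted p = 1.74e-05) and 2.54 ± 0.23 for Nid2 (adjusted p = 7.10e-07).

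Hspg2 (chr4:137024718-137126545) encodes perlecan, the heparan sulfate proteoglycan of vascular basement membranes. It was measured at 2.21, 1.80, 3.43, 1.43 and 4.32 RPKM in the AdCMV mice and 15.98, 13.5, 18.4, 15.8 and 22.7 RPKM in the AdVEGFA mice, without overlap. The log2 fold change was 2.76 ± 0.27 (SE; adjusted p = 1.46e-06), or 2.37 above the median of all genes. Agrn (chr4:155539399-155571597) encodes agrin, another large heparan sulfate proteoglycan that binds laminin. Its levels were 3.05, 2.80, 4.98, 3.18 and 6.20 RPKM and 7.42, 5.12, 8.08, 6.93 and 7.63 RPKM, and AdCMV mouse 5 lay above AdVEGFA mouse 2. The log2 fold change of 0.84 ± 0.24 had an adjusted p of 0.0198 but stayed under the fold threshold, and after scaling it was 0.44, with an adjusted p over 0.05.

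Fn1, fibronectin, which hepatocytes secrete into plasma and other cells deposit in matrix, was the most abundant member per length. It was present at 63.9, 47.4, 66.2, 68.3 and 136 RPKM in the AdCMV mice and 117, 97.1, 111, 198 and 128 RPKM in the AdVEGFA mice. AdCMV mouse 5 lay above all AdVEGFA mice except mouse 4, while the other AdCMV mice lay below all of them. Fn1 had a log2 fold change of 0.82 ± 0.27 (adjusted p = 0.0330), under the fold threshold. After scaling it was 0.42 (adjusted p = 0.295). With 1 mouse left out at a time, the log2 fold change of Fn1 ranged from 0.66 to 1.05 and its adjusted p from 0.00384 to 0.0958, and those of Agrn from 0.73 to 1.01 and from 0.00506 to 0.0595. Both genes passed the thresholds only without AdCMV mouse 5.

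Stretches of promoter are shown for perlecan, Nid1 and Lamb1, the members with the largest rises among those with an entry, and for agrin, whose level moved less than that of perlecan. The sequences are from RefSeq on build GRCm38.p6, with 26 of the 42 members matched by symbol, in 30 entries. They are written 5' to 3' on the gene's strand, from base 250 to base 61 before the start of transcription, with motif matches in capitals. Hspg2 is at chr4:137468553-137468742 and Nid1 at chr13:13437352-13437541, both on the plus strand. Lamb1 is at chr12:31265043-31265232 on the plus strand, and the entry of Agrn shown, one of 2, at chr4:156197549-156197738 on the minus strand.
Hspg2: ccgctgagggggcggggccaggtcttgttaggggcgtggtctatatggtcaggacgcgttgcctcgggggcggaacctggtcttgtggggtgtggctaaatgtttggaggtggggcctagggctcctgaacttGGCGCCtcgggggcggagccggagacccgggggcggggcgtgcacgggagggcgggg
Nid1: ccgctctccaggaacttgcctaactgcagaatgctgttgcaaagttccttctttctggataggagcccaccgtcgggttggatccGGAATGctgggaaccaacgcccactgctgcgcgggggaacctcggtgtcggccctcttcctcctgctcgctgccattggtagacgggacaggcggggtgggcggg
Lamb1: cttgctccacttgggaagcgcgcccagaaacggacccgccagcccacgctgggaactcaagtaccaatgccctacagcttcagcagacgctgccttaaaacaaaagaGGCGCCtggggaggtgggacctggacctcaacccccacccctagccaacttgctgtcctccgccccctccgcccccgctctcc
Agrn: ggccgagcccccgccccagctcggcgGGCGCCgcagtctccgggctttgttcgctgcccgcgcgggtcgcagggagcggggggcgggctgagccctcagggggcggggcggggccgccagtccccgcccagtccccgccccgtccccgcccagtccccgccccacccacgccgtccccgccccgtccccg

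The capitals mark the BMP-SMAD motif GGCGCC in Hspg2, Lamb1 and Agrn, and the TEAD core GGAATG in Nid1. The 250 bases before the start were searched on both strands for 5 motifs, named here with their letters, in the members and in all 32851 promoter entries. GGCGCC, which reads the same on both strands, was found in 5 of the 26 members (Agrn, Hspg2, Itgb1, Lama5 and Lamb1). That is 5 of their 30 entries, beside 9.59% of all entries. GGAATG was found in 4 members (Itga10, Itgb1, Lamb3 and Nid1), that is 4 of the 30 entries, beside 12.6% of all entries. The ETS core CGGAAG was found in 3 members (Itga3, Itgav and Lama5), that is 3 of the 30 entries, beside 13.6% of all entries. The AP-1 motif TGANTCA, which also reads the same on both strands, was found in Itgax alone and in 6.75% of entries, and the forkhead motif TGTTTAC in 0 members and 3.17% of entries. The other entry of Agrn held none of the 5 motifs. No match overlapped another, and each is a description of these letters in this window. Members without an entry included Lama1, Lama3, Lama4, Lamc1, Lamc3, Nid2, Fn1, Itga6, Itga7, Itgad, Itgae, Itgal, Itgb2, Itgb3 and Itgb4.

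Among the α chains of laminin-binding integrins, Itga6 rose and Itga3 and Itga7 did not pass the test. Itga6 (chr2:71624996-71696484) encodes the α6 chain, which binds laminin in endothelial, epithelial and blood cells. It was measured at 0.323, 0.755, 1.25, 0.567 and 1.19 RPKM in the AdCMV mice and 9.63, 11.5, 11.01, 7.57 and 9.55 RPKM in the AdVEGFA mice. The groups were far apart, with AdCMV mouse 3 the highest control and AdVEGFA mouse 4 the lowest of its group. The log2 fold change of 3.55 ± 0.30 (SE; adjusted p = 2.67e-07), or 3.17 above the median of all genes, was the largest of the members tested. Itga3, the α3 chain of epithelia, ranged from 0.353 to 0.944 RPKM in the AdCMV mice and from 0.809 to 1.58 RPKM in the AdVEGFA mice (0.66 ± 0.33, adjusted p = 0.156). Itga7, the α7 chain of muscle, ranged from 0.664 to 2.61 and from 1.07 to 2.77 RPKM (0.44 ± 0.35, adjusted p = 0.354). After scaling Itga3 was at 0.30 and Itga7 at 0.07.

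Of the collagen-binding α chains only Itga1 passed the filter. Itga1 (chr13:115748289-115892172), the α1 chain of endothelial and mesenchymal cells, was present at 4.20, 4.12, 7.08, 3.51 and 6.86 RPKM in the AdCMV mice and 10.3, 10.2, 12.5, 11.3 and 9.76 RPKM in the AdVEGFA mice. The groups did not overlap, and AdCMV mice 3 and 5 were the nearest to the AdVEGFA values. Its log2 fold change was 1.11 ± 0.22 (SE; adjusted p = 0.00169), 0.72 above the median of all genes. The call was lost after median-ratio scaling, with a log2 fold change of 0.71 (adjusted p = 7.01e-04), and without AdCMV mouse 4, with 0.98 (adjusted p = 0.00472), and with a pseudocount of 1, also with 0.98 (adjusted p = 0.00154). Itga2, the α2 chain of platelets and epithelia, rested on 1 to 8 reads per AdCMV mouse and 7 to 14 per AdVEGFA mouse, at 0.0330 to 0.243 and 0.298 to 0.497 RPKM, without overlap in RPKM. Fitted without the filter, it was called higher with a log2 fold change of 1.12 ± 0.30 (adjusted p = 0.0202). Itga10 rested on 5 to 16 and 3 to 7 reads and Itga11 on 2 to 10 and 6 to 11, with overlapping groups.

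Integrins with the α5, α8, αv or αIIb chain bind ligands with an RGD motif, such as fibronectin and vitronectin. Itga8, the α8 chain of stellate and smooth muscle cells, was measured at 0.240, 0.412, 0.795, 0.406 and 1.06 RPKM in the AdCMV mice and 2.91, 2.44, 2.08, 1.69 and 2.46 RPKM in the AdVEGFA mice. It rose without overlap, by a log2 fold change of 1.94 ± 0.34 (SE; adjusted p = 4.23e-04), which was 1.08 with a pseudocount of 1 and lost the call with treat (adjusted p = 0.131). Itgav, which pairs with several β chains, was measured at 5.41, 5.09, 9.90, 4.11 and 9.62 RPKM and 11.3, 10.9, 12.4, 10.8 and 9.82 RPKM. AdCMV mouse 3 lay just above AdVEGFA mouse 5, and the log2 fold change of 0.77 ± 0.24 stayed under the fold threshold (adjusted p = 0.0294). After scaling it was 0.38 (adjusted p = 0.0605). Itga5, the main fibronectin receptor chain, was measured at 3.06, 1.85, 4.48, 2.10 and 7.21 RPKM and 3.70, 3.94, 3.96, 4.57 and 6.31 RPKM. AdCMV mouse 5 had the highest Itga5 level of all 10 mice, and the difference did not pass the test (0.41 ± 0.32, adjusted p = 0.347). After scaling the log2 fold change of Itga5 was 0.02 (adjusted p = 0.974). Itga2b, the platelet chain that pairs with β3, ranged from 0.343 to 0.857 RPKM in the AdCMV mice and from 0.960 to 3.07 RPKM in the AdVEGFA mice and was called higher (1.42 ± 0.33, adjusted p = 0.00491). Scaling brought this to 1.06, still called, and the call was lost with a pseudocount of 1, at 0.80 (adjusted p = 0.00462), and with treat, where the adjusted p was 1.

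Of the related α4 and α9 chains, α9 was called higher. Itga9, which binds tenascin and VCAM1 and is known from lymphatic and sinusoidal endothelium, was present at 2.30, 3.89, 5.31, 2.55 and 5.51 RPKM in the AdCMV mice and 12.5, 14.2, 13.6, 12.2 and 12.1 RPKM in the AdVEGFA mice. All AdVEGFA mice lay above the AdCMV mice, with a log2 fold change of 1.78 ± 0.25 (SE; adjusted p = 4.38e-05), and the call was lost with treat (adjusted p = 0.0666). Itga4, the α4 chain of leukocytes, overlapped between the groups at 2.93 to 7.38 and 2.98 to 5.50 RPKM (-0.14 ± 0.27, adjusted p = 0.717), and the difference between the 2 genes was not tested. After median-ratio scaling Itga4 was at -0.53 (adjusted p = 0.0538). By voom with this scaling it was at -0.55 (adjusted p = 0.0372), within the fold threshold.

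Of the leukocyte α chains, which pair with β2 or β7, Itgal, Itgam and Itgax were tested and none was called in either direction by limma. Itgal, the αL chain of lymphocytes, was present at 7.16, 7.09, 9.98, 4.46 and 12.3 RPKM in the AdCMV mice and 10.2, 9.48, 10.0, 7.14 and 7.39 RPKM in the AdVEGFA mice. Itgam, the αM chain of myeloid cells, was present at 0.653, 0.526, 1.64, 0.388 and 1.195 RPKM and 0.842, 1.30, 0.769, 1.38 and 0.959 RPKM. The groups overlapped for both genes, with log2 fold changes of 0.17 ± 0.25 for Itgal (adjusted p = 0.620) and 0.36 ± 0.36 for Itgam (adjusted p = 0.475). Median-ratio scaling turned the sign of Itgal to -0.22 and gave 0.01 for Itgam. Itgax, the αX chain of dendritic and other myeloid cells, ranged from 0.876 to 3.50 RPKM and from 0.801 to 1.65 RPKM in the AdCMV and AdVEGFA groups (-0.62 ± 0.34, adjusted p = 0.183). After scaling its log2 fold change was -0.99 (adjusted p = 0.0125), just short of the fold threshold, and by voom with the same scaling it was called lower at -1.10 (adjusted p = 0.00714). Itgad rested on 2 to 7 and 1 to 6 reads and Itgae on 1 to 5 and 1 to 7, both below the filter.

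Among the β chains, Itgb3 and Itgb1 rose. Itgb1 (chr8:131209554-131257479), the β1 chain of most matrix-binding integrins, was the most abundant integrin chain per length, at 29.9, 29.4, 53.5, 22.7 and 40.5 RPKM in the AdCMV mice and 70.5, 71.6, 73.3, 69.7 and 61.9 RPKM in the AdVEGFA mice. The groups did not overlap, and the log2 fold change was 1.04 ± 0.22 (SE; adjusted p = 0.00230), close to the fold threshold and 0.65 above the median of all genes. The call was lost after scaling (0.64, adjusted p = 8.89e-04) and without AdCMV mouse 1, 2 or 4, with log2 fold changes of 1.00, 0.99 and 0.90, of which the first is 0.996 before rounding. Itgb3, the β3 chain of platelets and of activated endothelium, was measured at 0.383, 0.219, 0.749, 0.552 and 0.844 RPKM in the AdCMV mice and 3.27, 2.92, 3.69, 3.71 and 2.94 RPKM in the AdVEGFA mice. The lowest AdVEGFA mouse was well above the highest AdCMV mouse, with a log2 fold change of 2.49 ± 0.30 (adjusted p = 1.21e-05), which was 1.49 with a pseudocount of 1 and kept its call.

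Itgb5 and Itgb6, partners of αv, did not pass the test, with log2 fold changes of 0.51 ± 0.21 (adjusted p = 0.0902) and 0.52 ± 0.30 (adjusted p = 0.212). After scaling they were at 0.11 and 0.13. Itgb2 and Itgb7, the β chains of leukocytes, had log2 fold changes of -0.12 ± 0.25 (adjusted p = 0.742) and -0.24 ± 0.28 (adjusted p = 0.530). Scaled by median ratios, they were at -0.51 (adjusted p = 0.0246) and -0.62 (adjusted p = 0.0173), below 0 and within the fold threshold. Itgb4, the β4 chain of epithelial hemidesmosomes, rested on 5 to 11 and 4 to 15 reads and Itgb8 on 1 to 2 and 0 to 3, below the filter. The rows of Nid2, Hspg2, Lama5, Itga1, Itga4, Itga5, Itga7 and Itga8, and those of Itgad, Itgae and Itgb4 below the filter, overlap rows of other genes. Whether the counting used the strand is not given in the sources used here, so shared reads cannot be told apart.

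**Figure D2:**
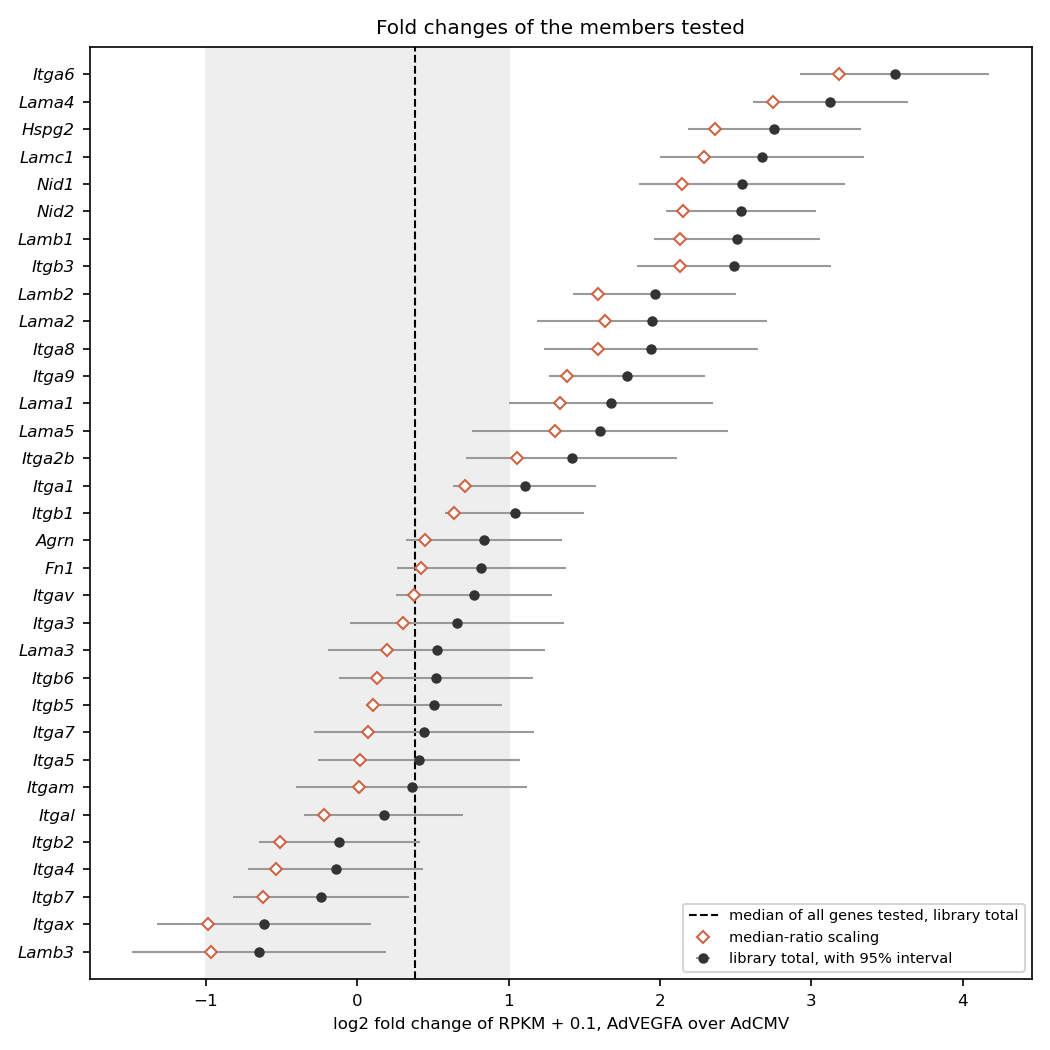
Log2 fold change of RPKM + 0.1 (AdVEGFA over AdCMV, 5 mice a group) for the 33 members tested, as black points with 95% intervals from limma, and as open diamonds after median-ratio scaling. The grey band spans the fold threshold and the dashed line is the median of all genes (0.38). Itga6 (3.55) and Lama4 (3.12) are at the top, and the diamonds of Itga1 and Itgb1 fall inside the band.

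Levels in RPKM are per length, so chains of a family can be set beside each other within a mouse. Lama4 made up 37.6% ± 4.47 (SD, n = 5) of the summed RPKM of the 5 laminin α chains in the AdCMV group and 63.9% ± 6.21 in the AdVEGFA group, with no overlap. The sum itself was 2.30 ± 0.786 RPKM and 12.5 ± 0.570 RPKM. Lama5 made up 13.9% ± 6.85 and 8.85% ± 1.86, with overlapping groups although its level rose. Among the β chains, Lamb1 made up 42.6% ± 5.61 and 64.1% ± 5.04, and Lamb3 26.7% ± 9.78 and 3.77% ± 1.29. Thus Lama4 and Lamb1 were the most abundant α and β chains in both groups.

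Of the summed RPKM of the 18 integrin α chains, Itga6 made up 1.99% ± 0.582 (SD, n = 5) in the AdCMV group and 13.5% ± 1.44 in the AdVEGFA group. Itgal had the highest mean share in the AdCMV group, 20.3% ± 2.02, and 12.1% ± 1.42 in the AdVEGFA group. Itga9 had the highest mean share in the AdVEGFA group, 17.7% ± 0.565, beside 9.74% ± 1.92 in the AdCMV group. Itga1 and Itgav, among the most abundant chains in both, made up 12.9% ± 1.08 and 16.7% ± 0.636 in the AdCMV group, and 14.8% ± 1.40 and 15.2% ± 0.763 in the AdVEGFA group. The share of Itga4 was 12.3% ± 0.673 and 5.96% ± 1.30, again without overlap. In the β family, Itgb1 held 58.6% ± 1.70 and 68.0% ± 0.988, Itgb5 20.6% ± 1.81 and 16.5% ± 1.17, and Itgb2 8.64% ± 1.30 and 4.46% ± 0.352. These shares are independent of scaling between libraries, and they were not tested. A share can fall without a fall in level when the sum rises. Mean Itgal was 8.19 RPKM in the AdCMV group and 8.85 RPKM in the AdVEGFA group, and Itgal, Itga4 and Itgb2 were not called lower by limma.

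**Figure D3:**
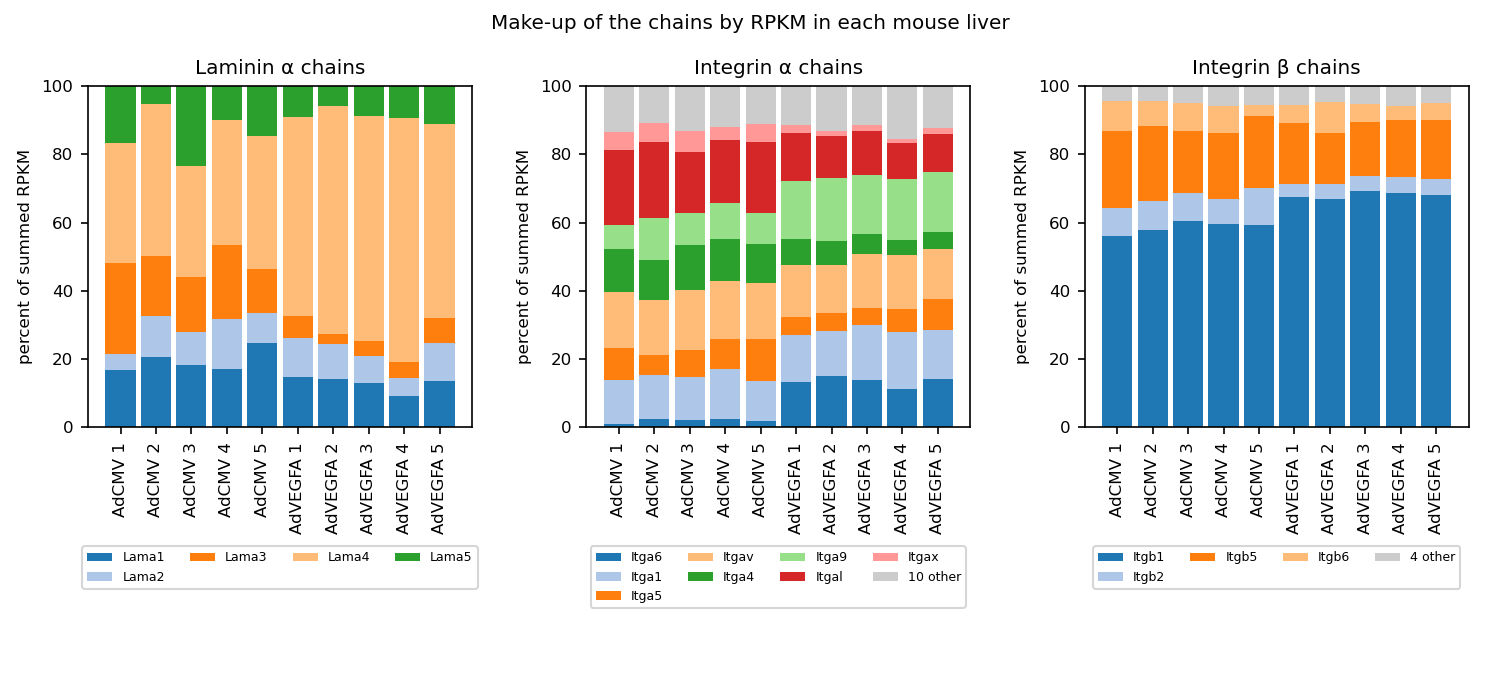
Percent of the summed RPKM of the laminin α chains, integrin α chains and integrin β chains held by each chain, 1 bar per mouse, with chains that stay under 5% in all mice pooled in grey. The Lama4 segment is larger in the AdVEGFA mice (mean 63.9%, AdCMV 37.6%), as is the Itga6 segment (mean 13.5%, AdCMV 1.99%).

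The ratio of 2 genes in a library depends little on the library total, except at low levels, where the 0.1 RPKM added to each gene weighs more, and 8 such ratios were compared by two-sided exact permutation tests, for which 0.00794 is the smallest p with 5 mice a group. Adjusted over the 8 ratios, 4 passed. The log2 ratio of Hspg2 to Agrn was -0.45, -0.61, -0.53, -1.10 and -0.51 in the AdCMV mice and 1.10, 1.38, 1.18, 1.18 and 1.56 in the AdVEGFA mice. Agrin was thus the more abundant of the pair in every AdCMV mouse and perlecan in every AdVEGFA mouse, a difference of 1.92 (exact p = 0.00794, adjusted p = 0.0212). The log2 ratio of Itga6 to Itga1 was -3.35, -2.30, -2.41, -2.44 and -2.43 in the AdCMV mice and -0.09, 0.17, -0.18, -0.57 and -0.03 in the AdVEGFA mice. It rose by 2.44 (exact p = 0.00794, adjusted p = 0.0212), from a level of Itga6 far below that of Itga1 to a similar one, higher in AdVEGFA mouse 2 alone, and with a pseudocount of 1 the rise was 1.62 (adjusted p = 0.0212). For Itgb3 to Itgb1, the log2 ratio was -5.81 ± 0.54 (SD) in the AdCMV group and -4.36 ± 0.14 in the AdVEGFA group, a rise of 1.45 (exact p = 0.00794, adjusted p = 0.0212). With a pseudocount of 1 this rise was 0.47, no longer past the threshold (adjusted p = 0.0635). All 5 AdVEGFA mice lay above all AdCMV mice for these 3 ratios.

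The log2 ratio of Lama4 to Lama5 was 0.88, 2.27, 0.43, 1.39 and 1.25 in the AdCMV mice and 2.59, 3.31, 2.80, 2.86 and 2.26 in the AdVEGFA mice. It rose by 1.52 (exact p = 0.0159, adjusted p = 0.0317), with AdCMV mouse 2 just above AdVEGFA mouse 5, and it was 1.32 with a pseudocount of 0.01 (adjusted p = 0.0635). For Lamb1 to Lamb2 the ratio was 0.44 ± 0.25 and 0.99 ± 0.35 (SD), and the difference of 0.54 just missed the threshold (exact p = 0.0317, adjusted p = 0.0508). Without AdCMV mouse 3 or AdVEGFA mouse 5 it was 0.65 in either case, past the threshold (adjusted p = 0.0254 and 0.0381 by the exact test), as it was with a pseudocount of 1, at 0.58 (adjusted p = 0.0317). Nid2 to Nid1 gave -1.97 ± 0.77 and -1.97 ± 0.35, with nearly equal means (exact p = 0.992, adjusted p = 0.992). Itga5 to Itgav gave -0.94 ± 0.37 and -1.30 ± 0.41 (exact p = 0.167, adjusted p = 0.222), and without AdVEGFA mouse 5 a difference of -0.53 that passed (adjusted p = 0.0423). Itgal to Itgam gave 3.16 ± 0.37 and 2.98 ± 0.52 (exact p = 0.540, adjusted p = 0.617).

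**Figure D4:**
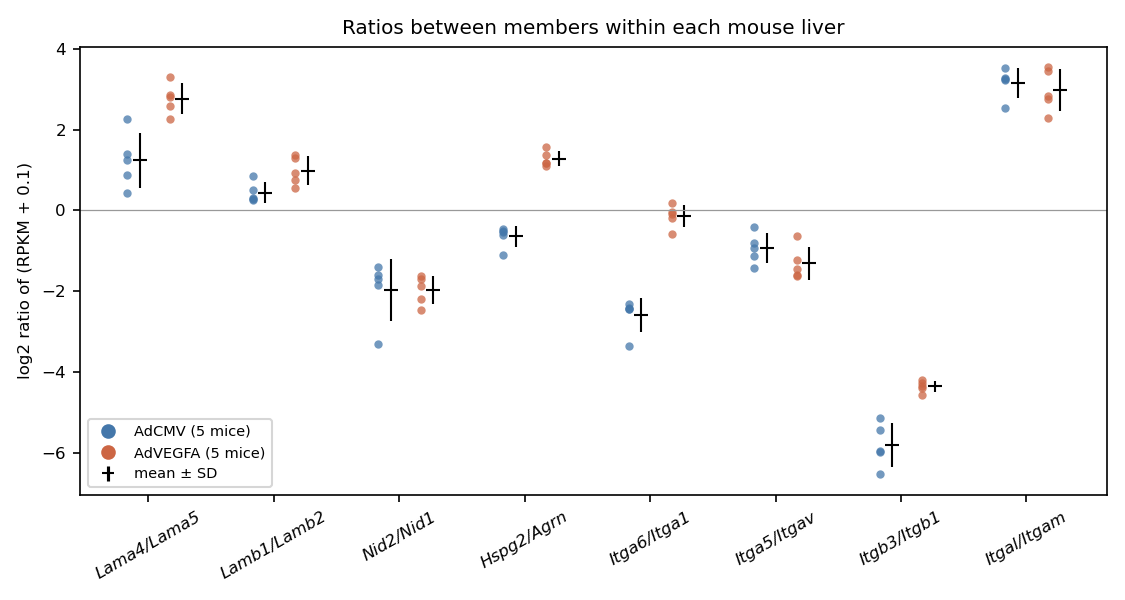
Log2 ratio of RPKM + 0.1 for 8 pairs of members in each of the 5 AdCMV mice (blue) and 5 AdVEGFA mice (orange), with mean ± SD as black crosses. The groups are apart for Hspg2/Agrn, Itga6/Itga1 and Itgb3/Itgb1, and the means of Nid2/Nid1 are -1.97 in both groups.

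Genes that act with the members were described by 4 lists. Of 20 other basement membrane genes, 13 were tested, 6 rose and 0 fell, and no tested one was lower at an unadjusted p under 0.05, with a median log2 fold change of 0.95 beside 0.38 over all genes. The largest rises were those of Pxdn, a peroxidase that crosslinks collagen IV, at 3.43 ± 0.27 (adjusted p = 1.61e-07), and Sparc, a collagen-binding matrix protein, at 3.34 ± 0.25 (adjusted p = 1.12e-07). Col4a1 and Col4a2, the collagen IV chains of most basement membranes, followed at 3.06 ± 0.23 and 3.07 ± 0.27, and Fbln1 and Ntn4 at 1.57 ± 0.37 and 1.45 ± 0.44, while the call of Ntn4 was lost after scaling. Fbln1 and Ntn4 passed the filter by their AdVEGFA mean alone. Col4a3, Col4a4, Col4a5 and Col4a6 were below the filter.

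Of 22 cytoplasmic partners of integrins, 21 were tested and 5 rose (Lims1, Parvb, Tns2, Ilk and Tns3), beside 13.0% of all genes, with a median of 0.78 and 0 lower by limma at either an adjusted or an unadjusted p under 0.05. Lims1, an adaptor that joins Ilk and the parvins, had the largest log2 fold change, 1.39 ± 0.23 (adjusted p = 2.62e-04), and Parvb the next, 1.38 ± 0.35 (adjusted p = 0.00931). After scaling 1 of the 21, Parvb, was called higher, beside 7.77% of all genes, and Lims1, at 0.995, was just short of the fold threshold. These shares were not compared by a test. Of 10 other matrix receptors all were tested and 4 rose (Bcam, Ddr1, Ddr2 and Sdc3), beside 13.0% of all genes. Their median was 0.92, with 0 lower by limma at an adjusted or unadjusted p under 0.05. Bcam, a receptor for the laminin α5 chain, had the largest rise, 2.05 ± 0.32 (adjusted p = 1.50e-04), followed by the collagen receptor Ddr1, 1.36 ± 0.38 (adjusted p = 0.0152). After scaling 2 of the 10, Bcam and Ddr1, were called higher, beside 7.77% of all genes.

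Of 16 ligands of integrins outside the members, 14 were tested and 6 rose (Spp1, Postn, Icam2, Tnc, Mfge8 and Vcam1), beside 13.0% of all genes, with a median of 0.77. Spp1, osteopontin, ligand of αv and α9 integrins, had a log2 fold change of 3.91 ± 0.29 (adjusted p = 1.00e-07), and Postn, periostin, one of 3.56 ± 0.28 (adjusted p = 1.61e-07). Vcam1, which α4 and α9 integrins bind, was at 1.15 ± 0.27 (adjusted p = 0.00508). Icam1, a ligand of the αL and αM chains with β2, was at -0.67 ± 0.28 (adjusted p = 0.0856), and after scaling it was called lower at -1.07, while 4 of the 6 rises were kept and those of Vcam1 (0.75) and Tnc (1.41) lost their calls. Tnc, which rose, and Vwf, which was not called, passed the filter by their AdVEGFA mean alone.

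Most markers of vessel cells rose. The counts of the marker lists stand beside 13.0% of all genes called higher and 1.54% lower, or 7.77% and 3.14% after scaling. All 12 endothelial markers rose, with a median log2 fold change of 2.68 and summed levels of 51.1, 55.7, 77.6, 37.5 and 72.9 RPKM in the AdCMV mice and 372, 345, 398, 416 and 351 RPKM in the AdVEGFA mice. Egfl7 was the most abundant, none was at 0, and the rises ran from 1.43 for Tek to 5.84 for Cd34, with Emcn next at 5.33 ± 0.29 (adjusted p = 2.41e-09). Of the 12, Cd34 passed the filter by its AdVEGFA mean alone. Set beside the endothelial median, Itga6, Lama4 and Hspg2 had larger log2 fold changes, by 0.87, 0.45 and 0.08, and Lamc1 was at 0.00 from it. Nid1, Nid2, Lamb1 and Itgb3 lay below it, at -0.14, -0.14, -0.17 and -0.19, and Itgb1 at -1.64. These differences were not tested, nor was the part of endothelial cells in the members' rises.

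Of 8 sinusoidal endothelial markers 7 rose (median 1.69), with sums of 67.7, 90.5, 98.7, 57.7 and 91.7 RPKM in the AdCMV mice and 268, 221, 247, 263 and 186 RPKM in the AdVEGFA mice. Fcgr2b had the highest mean in the AdCMV group and Clec4g in the AdVEGFA group, none was at 0 throughout a group, and the largest rises were those of Oit3 (2.10 ± 0.22) and Lyve1 (2.03 ± 0.27). The marker that did not rise, F8, was at -0.89 ± 0.25 by limma (adjusted p = 0.0150), within the fold threshold. After scaling 5 were called higher and F8, at -1.29, lower. All 8 stellate cell markers rose, of which Hand2 passed the filter by its AdVEGFA mean alone (median 1.76), led by Ngfr (2.43 ± 0.23) and Pdgfrb (2.19 ± 0.27). Their sums were 26.6, 34.4, 31.2, 23.7 and 42.7 RPKM and 144, 125, 111, 108 and 81.4 RPKM, with Colec11 the most abundant and none at 0 throughout a group. Itga8 and Lama2 had log2 fold changes of 1.94 and 1.95, and the part of any cell type in them was not tested. Of 5 smooth muscle and myofibroblast markers 4 rose (median 3.23), with Acta2 at 3.91 ± 0.36 and Actg2 at 3.59 ± 0.54 the largest. They summed to 16.4, 20.01, 24.6, 11.9 and 18.5 RPKM and 54.2, 84.0, 167, 210.3 and 91.9 RPKM, mostly Tagln, with none at 0 throughout a group. Actg2, Myh11 and Cnn1 passed the filter by their AdVEGFA mean alone, and the count and the median rest in part on them. The part of these cells in the members' values was not tested.

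Leukocyte markers moved in both directions beside the leukocyte integrins. Of 8 T and NK cell markers 5 were called lower (7 after scaling), with a median of -1.23. By limma without scaling, 7 were lower at an unadjusted p under 0.05, and 0 were higher at an adjusted or unadjusted one. Gzmb fell the most, by 1.98 ± 0.40 on the log2 scale (adjusted p = 0.00176). The sums were 22.1, 22.6, 38.3, 9.99 and 32.0 RPKM in the AdCMV mice and 12.6, 11.4, 16.3, 6.88 and 7.13 RPKM in the AdVEGFA mice, with Nkg7 the most abundant and none at 0 throughout a group. Itgal, Itgb2 and Itgb7 were not called lower, and AdCMV mice 3 and 5, with the highest marker sums, also had the highest Itgal, Itgax and Itgb7 levels of their group. These mice were also the highest controls for Lamb1, Lamb2, Lamc1 and Itga1, and had the lowest Mup shares of their group. Of 4 B cell markers 3 rose (1 after scaling; median 1.64), all of them but Cd79b past the filter by their AdVEGFA mean alone and none at 0 throughout a group, with Cd79b, the most abundant, at 2.36 ± 0.37 and Ms4a1 at 1.74 ± 0.49, and sums of 0.669, 1.71, 1.15, 1.36 and 1.52 RPKM and 7.82, 6.74, 4.91, 6.43 and 2.88 RPKM. Of 8 Kupffer cell and macrophage markers 2 rose, Clec4f (2.15 ± 0.34) and Vsig4 (2.14 ± 0.32), with a median of 0.75, Cd5l the most abundant and none at 0 throughout a group. Timd4, which was not called, passed the filter by its AdVEGFA mean alone. Their sums were 108, 156, 153, 86.9 and 194 RPKM and 284, 256, 272, 207 and 190.4 RPKM. The part of leukocytes in the integrin values was not tested.

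Of 5 neutrophil markers 4 were in the table, and Mpo and Elane, which passed the filter by their AdVEGFA mean alone, were called higher. Mpo was listed at 0 in all 5 AdCMV mice, and S100a8, the most abundant, and S100a9 were not called (0.24 ± 0.58 and 0.15 ± 0.61). The sums were 39.3, 96.1, 37.3, 14.9 and 15.4 RPKM in the AdCMV mice and 23.9, 49.8, 25.2, 192 and 15.6 RPKM in the AdVEGFA mice, with overlap. Of 6 platelet and megakaryocyte markers 3 were tested and all 3 rose, beside Itga2b and Itgb3, the chains of the platelet fibrinogen receptor. Pf4, the most abundant, was at 2.25 ± 0.33 (adjusted p = 8.73e-05) and Ppbp at 2.13 ± 0.49 (adjusted p = 0.00437), and Gp6, below the filter, was at 0 in all AdCMV mice and at most at 0.118 RPKM in an AdVEGFA mouse. Their summed RPKM was 6.34, 6.65, 3.76, 3.34 and 4.55 in the AdCMV mice and 22.2, 35.6, 29.9, 27.6 and 8.24 in the AdVEGFA mice. AdVEGFA mouse 5 had the lowest sum of its group and also its lowest Itga2b level, 0.960 RPKM, while its Itgb3 level was near that of mouse 2. The part of platelets and megakaryocytes in these values was not tested.

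Of 6 cholangiocyte markers 3 were tested and 0 were called, by limma, with 1, Sox9, higher at an unadjusted p under 0.05 and also at an adjusted p (log2 fold change 0.88 ± 0.21, adjusted p = 0.00653), under the fold threshold. They summed to 5.94, 8.03, 7.67, 6.39 and 5.62 RPKM in the AdCMV mice and 7.70, 12.9, 11.1, 17.04 and 12.3 RPKM in the AdVEGFA mice, most of it Sox9, which other liver cells also express, and Krt19 passed the filter by its AdVEGFA mean alone. Of 6 hepatocyte markers 2 rose, Apoa1 (1.17 ± 0.23) and Alb (1.14 ± 0.28), the most abundant, neither of them after scaling, and the median was 0.58. Their sums were 12964, 14733, 11490, 10807 and 16693 RPKM and 24861, 23693, 28135, 24827 and 27886 RPKM.

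**Figure D5:**
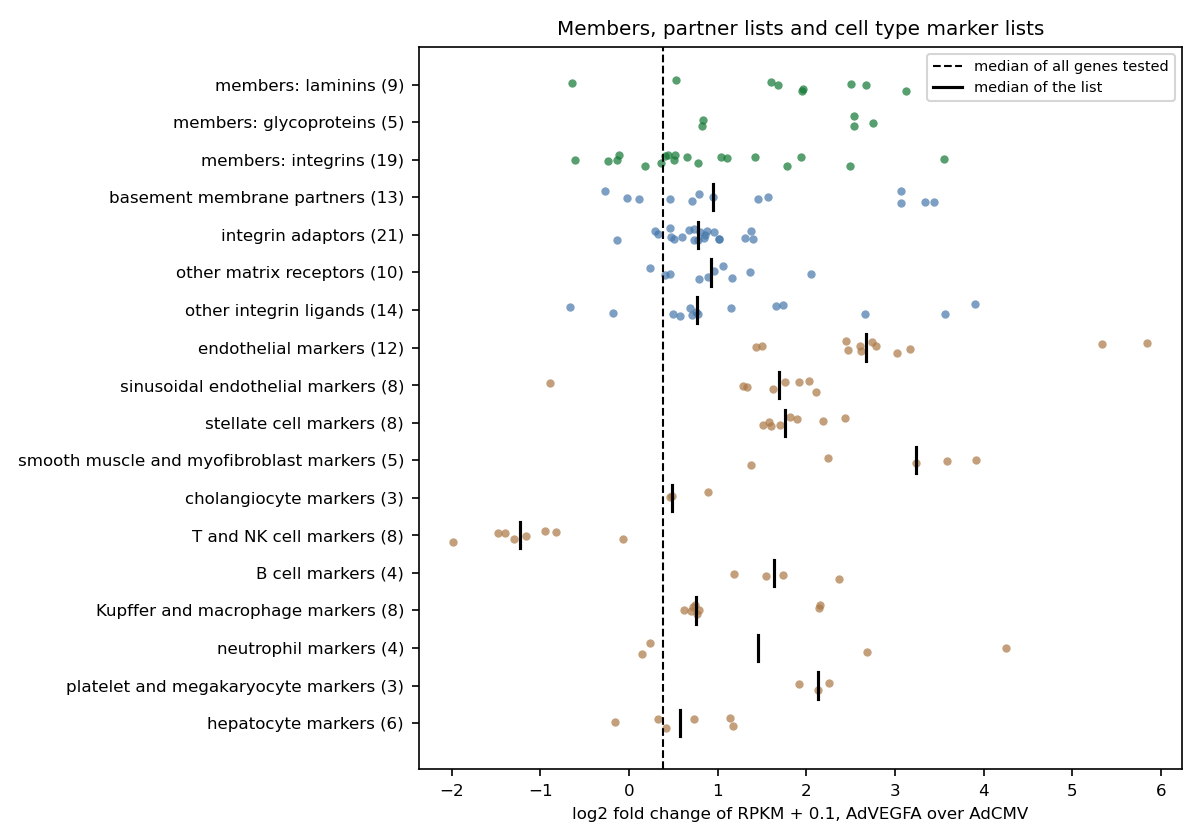
Log2 fold change of RPKM + 0.1 (AdVEGFA over AdCMV) of each gene tested, for the members (green), the 4 partner lists (blue) and the 11 cell type marker lists (brown), with the number of genes in brackets. Black bars are medians of the lists and the dashed line is the median of all genes (0.38). The endothelial and smooth muscle lists have medians of 2.68 and 3.23, and the T and NK cell list one of -1.23.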

How the data were processed

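The authors deposited RPKM for each mouse. The submitters' processing notes name TopHat, HOMER and genome build mm9; how reads were counted, and whether by strand, is not given in the sources used here. The deposited table also holds the authors' log fold changes and FDR, which were not used. From the steps in RPKM, the tags of each library were estimated, and whole reads were recovered for 99.98 to 99.99% of entries. The reads summed over genes exceeded the estimated library tags by 2.31 to 13.9%. Rows without a gene name were left out (at most 0.00556% of the tags of a library).

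Log2(RPKM + 0.1) was fitted with limma 3.58.1 (trend) in R 4.3.3 for genes with a mean over 0.5 RPKM in either group, with Benjamini-Hochberg adjustment over all genes tested. Ratios between members were compared by exact permutation tests in Python 3.11.15 with numpy 2.4.6, and figures drawn with matplotlib 3.10.9. The calculations were tried on simulated data. Per-mouse values are given for the called member with the largest change and the most abundant member of each role, and for members of the ratios; for the lists, the 2 largest rises and the largest fall among called genes are named, and further genes were named after their values were seen. Members and lists were chosen with earlier results of these data known. Values of 1 member are not reported here.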

Additional observations from a re-analysis of the deposited data

Results flagged for a closer look

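Among the members' RPKM values and the 8 log2 ratios, 100 groups of 5 mice were examined, and in 9 of them 1 mouse lay far from the other 4. How many groups chance alone would flag was not computed from these data, and the causes were not tested.

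In AdCMV mouse 5, Fn1 was at 136 RPKM (next highest 68.3, lowest 47.4), Lamc3 at 0.412 RPKM (next 0.138, lowest 0.0700) and Itgad at 0.309 RPKM (next 0.0970, lowest 0.0540). The values of Lamc3 and Itgad rest on few reads. In the AdVEGFA group, Itga3 was at 1.58 RPKM in mouse 4 (next 0.889, lowest 0.809), Itga10 at 0.250 RPKM in mouse 3 (next 0.148, lowest 0.107) and Itgb6 at 9.74 RPKM in mouse 2 (next 5.51, lowest 4.05).

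Of the log2 ratios, Nid2 to Nid1 was -3.31 in AdCMV mouse 3 (nearest -1.85, other end -1.39). Hspg2 to Agrn was -1.10 in AdCMV mouse 4 (nearest -0.61, other end -0.45), and Itga6 to Itga1 was -3.35 in AdCMV mouse 1 (nearest -2.44, other end -2.30).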

How the results depend on the processing

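Of the 17 members called higher, all had a positive log2 fold change under each of the 22 alternatives per member, and 9 kept the call under each of them. The count was 9 with treat against a log2 fold change of 1, and 15 to 19 when 1 mouse was left out. Members called lower were 0 except with voom and median-ratio scaling, where they were 2 (Itgax -1.10, Lamb3 -1.17). Itgb1 lost its call under 7 alternatives and Itga1 under 6. Lama1, Lama2, Lama5 and Itga2b lost it with treat and with a pseudocount of 1, and Itga8 and Itga9 with treat.

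Of all genes, 1082 were called higher and 438 lower with median-ratio scaling, 1169 and 366 with upper quartile scaling, 503 and 36 with treat, 1135 and 477 with voom and median-ratio scaling, and 954 higher with a pseudocount of 1. With 1 mouse left out the counts were 1425 to 2357 higher and 178 to 225 lower. The causes were not tested beyond the scaling itself.

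Direction turned only for values that were not called. Itgal was at -0.22 with median-ratio scaling, -0.15 with upper quartile scaling and -0.22 with voom and median-ratio scaling, and ranged from -0.0210 to 0.34 when 1 mouse was left out. In the same way Itgb2 ranged from -0.32 to 0.0238 and Itga4 from -0.31 to 0.0175. Ranges were also wide for Itgam (0.15 to 0.61), Itga5 (0.21 to 0.68), Itga7 (0.21 to 0.67), Itgb5 (0.34 to 0.62), Itgb6 (0.32 to 0.74), Itgb7 (-0.36 to -0.07) and Lamb3 (-0.81 to -0.38), none of them called with any mouse left out. The difference in the Nid2 to Nid1 ratio was 0.0460 with a pseudocount of 0.01 and -0.32 with one of 1, and ranged from -0.34 to 0.14 when 1 mouse was left out. That of Itgal to Itgam ranged from -0.34 to -0.01, and that of Itga5 to Itgav from -0.53 to -0.23.

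Mice of the 2 groups share only their numbers. With a replicate block by number, members called were 17 higher and 0 lower and all genes 1933 and 256, and 0 of the 8 ratios passed, as the smallest p of a sign-flip test of 5 pairs is 0.0625. The correlations of same-numbered mice were 0.0357, 0.109, 0.00763, 0.0960 and 0.291. As 3 of these were under 0.1, the numbers were not taken as pairs, although 3 of the 5 AdCMV mice correlated best with their own number. Lamc3, Itga2, Itga10, Itga11, Itgad, Itgae, Itgb4 and Itgb8 were among the members below the filter, and of these 8 only Itga2 was called without it.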
